A study of Mus musculus with 10 samples.

Results

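The 37 genes described here carry fatty acids from the blood into heart muscle cells and break them down in mitochondria and peroxisomes, with the factors that set their transcription. They were taken by gene symbol from a list of known functions. All 37 had a row among the 21222 genes of the deposited count table, and all 37 passed the low-count filter in each comparison, the least counted being Angptl4 with 31 reads in its lowest library. Left ventricular RNA was taken at 6 months of age, and all mice were C57BL/6J males. Non-transgenic mice (NTG, n = 4) were set against a line labelled CaNrf2-Low (TGL, n = 3) and a line labelled CaNrf2-High (TGH, n = 3). CaNrf2 is a constitutively active form of Nrf2, the transcription factor of the antioxidant response, and TG joins both lines (n = 6). Neither the promoter of the transgene nor the feeding state at sampling is given in the sources used here. Nor do the labels state that each library came from a separate mouse, so p-values measure the spread between these libraries.

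The working heart draws most of its energy from long-chain fatty acids. Lipoprotein lipase frees them from blood lipids at the vessel wall, carriers take them into the muscle cell, the carnitine shuttle moves them into mitochondria, and beta-oxidation cuts them into acetyl-CoA while handing electrons to the respiratory chain. The nuclear receptors PPAR-alpha and PPAR-delta, with their coactivator PGC-1-alpha (encoded by Ppargc1a), drive transcription of many of these genes in heart, and loss of this program is a known feature of the stressed heart.

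Totals ran from 7076319 to 10896535 counts per library. Values are given as CPM, counts scaled to the TMM-adjusted library, and 3 counts stood at 0.259 to 0.436 CPM. Nfe2l2, which encodes Nrf2, had 88.1 to 164 CPM in NTG, 128 to 182 in TGL and 181 to 253 in TGH, but a transgene of partial or other sequence need not be counted there. Summed over 10 cardiomyocyte markers the level was 81515 to 87265 CPM in NTG, 78515 to 79027 in TGL and 65572 to 70690 in TGH. Of the atrial markers Sln stood at or under 0.216 CPM and Myl7 at or under 0.478 CPM in all 10 libraries. All 5 atrial markers, Nppa and Myl4 included, summed to 40.5 to 84.5 CPM in NTG, 306 to 937 in TGL and 353 to 422 in TGH. The 6 measured markers of fat cells summed to at most 1.14 CPM in any library, and Adipoq had 0 counts in 6 of the 10.

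Fatty acid genes were lower in the high line. In TGH against NTG 19 of the 37 members fell (51.4%) and 1 rose, where 16.4% of the 14511 tested genes were called lower and 16% were called higher. Their median log2 fold change was -0.29, beside -0.02 for all tested genes. In TGL against NTG 3 fell (8.11%), beside 2.14% of all genes, and 0 rose at an adjusted p under 0.05 by edgeR. The unadjusted p was under 0.05 for 14 members in that comparison, and DESeq2 called 8 lower and 0 higher. The median there was -0.12 (all genes -0.01). Joined as TG, 13 of 37 fell (35.1%) and 0 rose, beside 8.03% of 14265 genes called lower and 9.34% called higher. The unadjusted p of edgeR was under 0.05 for 17 members, and DESeq2 also called 13 lower and 0 higher. The authors' deposited table, also for TG against NTG, lists 13 members lower and 0 higher at an adjusted p under 0.05. In either direction 17.4% of all genes were called in TG, 6.29% in TGL and 32.4% in TGH. Called higher in TGL were 4.15% of all genes. Both lines were set against the same 4 NTG libraries, so these comparisons are not independent.

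Some members were separated from NTG in every library. In TG 11 of 37 members (29.7%) lay under all NTG libraries and 0 above them, beside 6.41% and 7.67% of all genes. In TGL these were 12 of 37 lower (32.4%) and 0 higher, beside 9.46% and 10.7% of all genes. In TGH they were 19 of 37 lower (51.4%), beside 19.6% of all genes, and 2 of 37 higher, beside 19.3%.

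Summed over the 37 members the libraries held 31149 to 34761 CPM in NTG, 28155 to 29086 in TGL and 20937 to 26284 in TGH, with no overlap between the groups. Lpl alone held 22.3% to 27.0% of this sum in NTG and 13.2% to 18.0% in TGH. Without Lpl, an alternative added after seeing the data, the other 36 members summed to 24188 to 25967 CPM in NTG, 22287 to 23201 in TGL and 17167 to 22433 in TGH. Both lines then still lay under NTG, but they overlapped each other, with TGH 0 above TGL 1. TGH 2 was the lowest library at 20937 CPM and had 33 of 37 members under the NTG mean. NTG 2 was the lowest of its group, with 30 members under that mean. Without TGH 2 the members that fell in TGH numbered 15, and the median of all 37 was -0.18. With both TGH 2 and NTG 2 left out, a choice made after seeing the data, they numbered 16, and the median of all 37 was -0.21. In TGL the count rested on single libraries, being 0 without TGL 0 or without TGL 1, 1 without NTG 0 or NTG 1, 2 without NTG 3 or TGH 1, 5 without TGL 2 or TGH 2, and 6 without NTG 2. For TG it was 5 without NTG 0 or without NTG 1 and 8 without NTG 3.

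**Figure D1:**
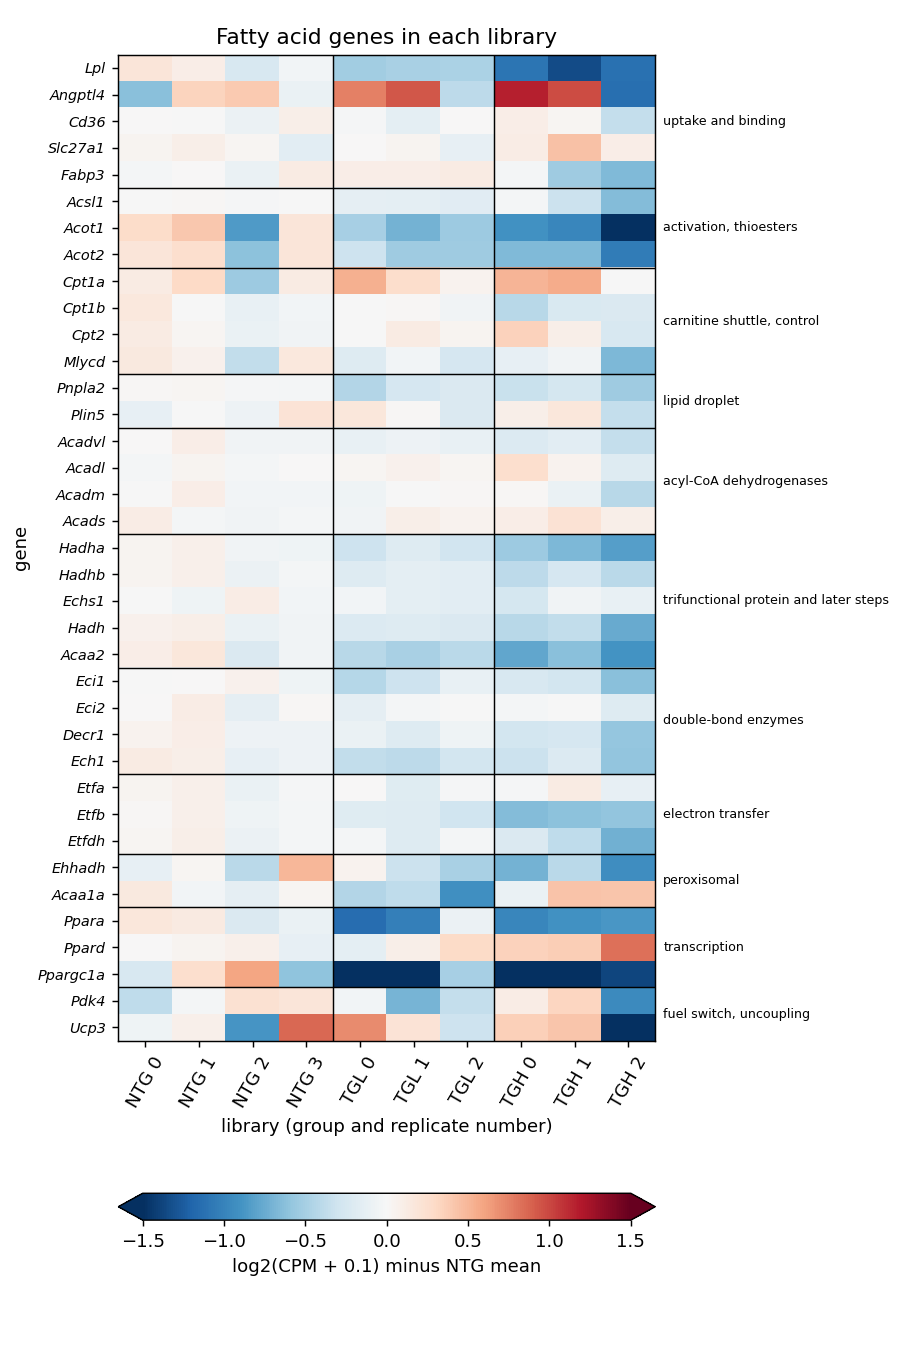
Each row is a gene, ordered by role, and each column a library. Colour gives log2(CPM + 0.1) minus the NTG mean of that gene, on a scale that ends at 1.5 in either direction. Blue dominates in the TGH columns, most in TGH 2, while Ppard is red there.

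Markers of the heart's cell types moved in the same libraries. In TGH against NTG 8 of 10 cardiomyocyte markers fell and 1, Actc1, rose, with a median log2 fold change of -0.44, lower than the members' median. There were 10 members under -0.44. Of 10 endothelial markers 6 fell and 0 rose (median -0.43), of 10 fibroblast markers 9 rose and 0 fell (median 0.68), and of 10 macrophage markers 5 rose and 0 fell (median 0.52). In TGL 1 of 10 cardiomyocyte markers fell (median -0.10), 2 of 10 fibroblast markers rose, and the endothelial sum stood at 0.798 to 1.01 of the NTG mean. Of 8 smooth muscle and pericyte markers 3 fell and 1 rose in TGH, and of the atrial markers Nppa and Myl4 rose in both lines. Red blood cell markers summed to 717 to 1133 CPM over all libraries, with overlap between the groups. NTG 2 had the highest sum of smooth muscle and pericyte markers, 2830 CPM beside 1839 to 2393 in the other libraries. In bulk tissue, fewer heart muscle cells and less RNA per cell cannot be told apart. The part of cell makeup in the changes of the fatty acid genes was not tested.

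**Figure D2:**
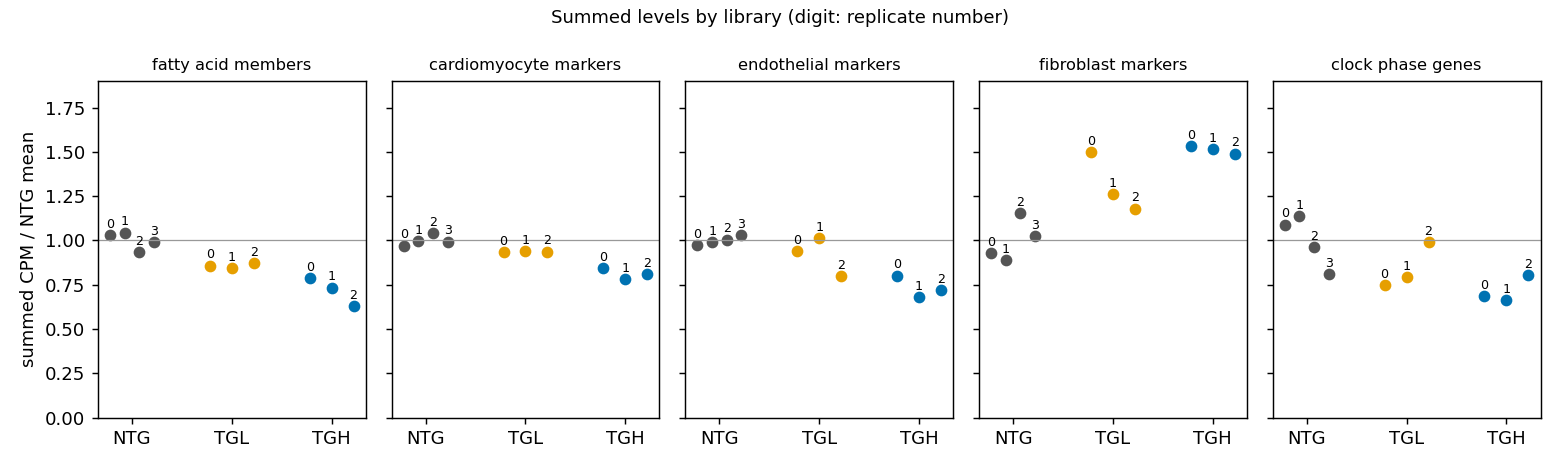
Points are libraries, marked by replicate number, and the vertical axis is the summed CPM of a gene group divided by its NTG mean. The fatty acid members, Lpl included, stood at 0.629 to 0.790 in TGH (0.686 to 0.896 without Lpl, not drawn), cardiomyocyte markers at 0.781 to 0.842, endothelial markers at 0.679 to 0.801, fibroblast markers at 1.49 to 1.53 and clock genes at 0.665 to 0.803.

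Among the uptake genes Lpl was called in every comparison. Lpl encodes lipoprotein lipase, which releases fatty acids from circulating lipoproteins (ENSMUSG00000015568, GRCm38 chromosome 8, 68880491 to 68907448). It stood at 9271, 8793, 6961 and 7983 CPM in NTG 0 to NTG 3, 5733, 5867 and 5886 CPM in TGL 0 to TGL 2, and 3851, 3229 and 3771 CPM in TGH 0 to TGH 2. The 3 groups did not overlap, with every TGL library under every NTG library and every TGH library under every TGL library. Lpl fell by 0.50 ± 0.10 in TGL (log2 fold change ± SE, the form used for all changes, edgeR adjusted p = 0.0127) and by 1.19 ± 0.10 in TGH (edgeR adjusted p = 6.42e-06), or 2.28-fold. The difference between the lines also passed, at -0.69 ± 0.11 for TGH against TGL (edgeR adjusted p = 0.00217), and Lpl was called in TGH against NTG whichever library was left out. In TGL its call was lost without TGL 0 or TGL 1 (highest edgeR adjusted p = 0.0643).

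Gpihbp1, the endothelial protein that holds lipoprotein lipase at the vessel wall, fell as well in TGH (-1.18 ± 0.22, edgeR adjusted p = 0.00171), from a mean of 90.7 CPM in NTG to 64.3 in TGL and 40.0 in TGH. The summed endothelial markers were lower in the same TGH libraries. Angptl4, a secreted inhibitor of lipoprotein lipase, had few counts, 3.35 to 16.8 CPM over all libraries, and did not pass (0.58 ± 0.45, edgeR adjusted p = 0.345).

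Of the carriers into and through the muscle cell, Fabp3 was called and Cd36 and Slc27a1 were not. Cd36, the main fatty acid translocase of the heart cell membrane, stood at 2669, 2649, 2495 and 2815 CPM in NTG 0 to NTG 3, 2626, 2397 and 2664 CPM in TGL 0 to TGL 2, and 2836, 2699 and 2069 CPM in TGH 0 to TGH 2. Its groups overlapped, and the difference of TGH from NTG was -0.07 ± 0.10 (edgeR adjusted p = 0.64). Slc27a1, a transport protein with acyl-CoA synthetase activity, was at 0.22 ± 0.10 (edgeR adjusted p = 0.0955).

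Fabp3 encodes the heart's cytosolic fatty acid binding protein (ENSMUSG00000028773, GRCm38 chromosome 4, 130308595 to 130315463). It had 3179, 3247, 3029 and 3523 CPM in NTG 0 to NTG 3, 3466, 3483 and 3529.8 CPM in TGL 0 to TGL 2, and 3185, 2247 and 2055 CPM in TGH 0 to TGH 2. TGL lay within or just above the NTG range, TGH 0 lay inside it, and TGH 1 and TGH 2 lay under both other groups. Fabp3 fell in TGH against NTG (-0.38 ± 0.13, edgeR adjusted p = 0.0398) and in TGH against TGL (-0.48 ± 0.14, edgeR adjusted p = 0.0434). The first call was lost in 7 and the second in 8 of the 10 fits that left out 1 library (highest edgeR adjusted p = 0.162). Of its sequence, 37.3% of 50-base words occur in other genes, Fabp3-ps1 above all, so its count is uncertain.

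Per kilobase of exon, which allows genes to be compared, Fabp3 was the most abundant member in NTG at 3942 ± 251 RPKM (SD, n = 4). Lpl followed with 788 ± 96.5 RPKM, Cd36 with 740.1 ± 36.5, Ech1 with 731 ± 60.7 and Acadl with 696 ± 16.9. These last 4 overlapped in their NTG ranges, and their order depended on the exon length used: with the longest transcript Acadm ranked before Cd36. Lpl ranked 2 of 37 in NTG and 7 of 37 in TGH, with 345 RPKM there.

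**Figure D3:**
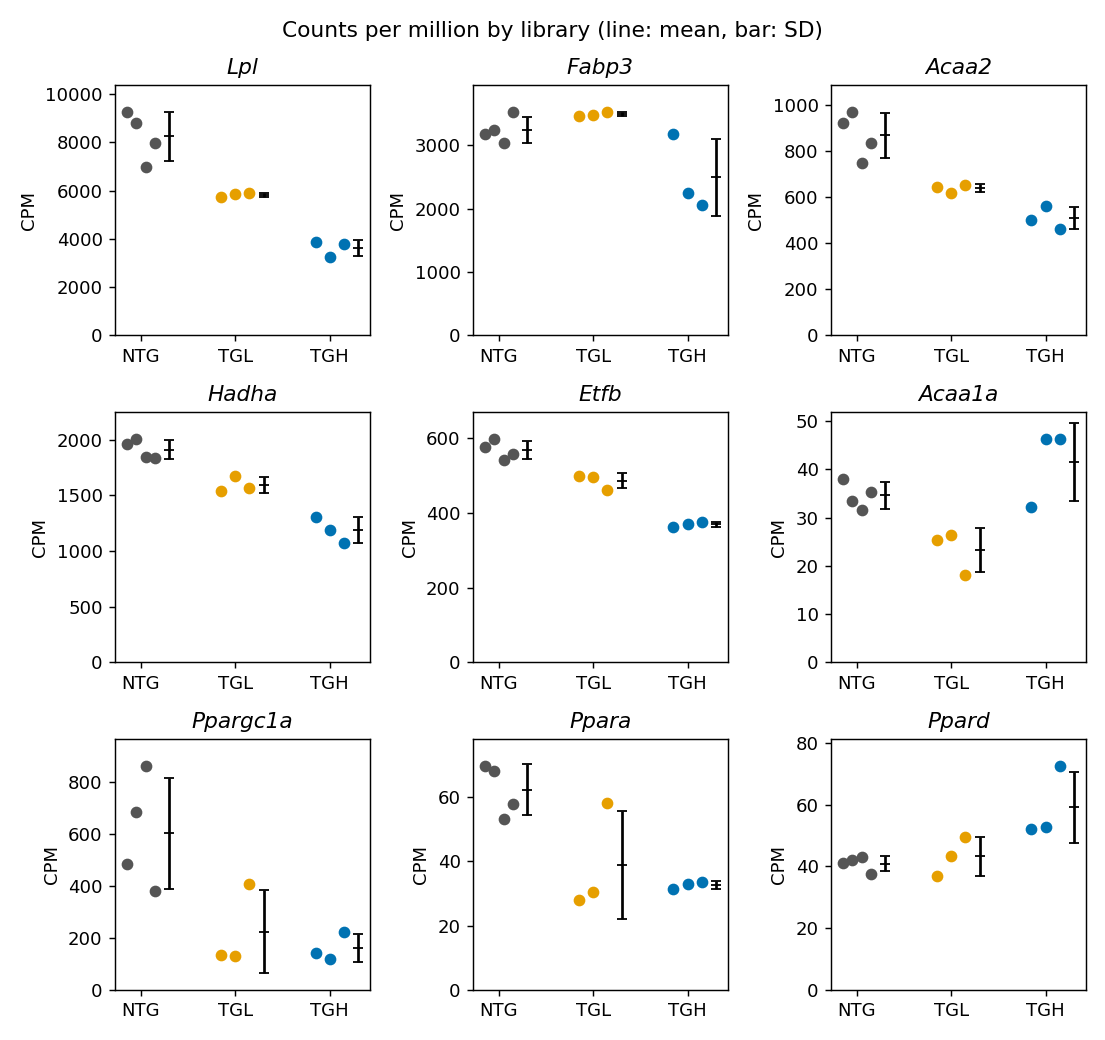
Dots are libraries in CPM on axes that start at 0, with the group mean and SD beside them. Lpl, Acaa2, Hadha and Etfb step down from NTG to TGL to TGH, Acaa1a is lowest in TGL, and Ppara and Ppargc1a show TGL 2 apart from the other TGL libraries.

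Of the genes that activate fatty acids to acyl-CoA and reverse this, both thioesterases fell in TGH. Acsl1, the main long-chain acyl-CoA synthetase of heart, was at -0.31 ± 0.11 and just missed the threshold (edgeR adjusted p = 0.0518). It had 1371 to 1403 CPM in NTG, 1225 to 1266 in TGL, and 1353, 1108 and 880 in TGH 0 to TGH 2. Each TG library lay under each NTG library. Acot1, a cytosolic acyl-CoA thioesterase that is a known target of PPAR-alpha, had 24.8, 27.1, 11.3 and 23.2 CPM in NTG 0 to NTG 3, 14.5, 12.5 and 14.1 CPM in TGL 0 to TGL 2, and 10.9, 10.4 and 7.12 CPM in TGH 0 to TGH 2. NTG 2 lay at the level of the TG libraries, and the other NTG libraries lay above them. Acot1 fell by 1.19 ± 0.26 in TGH (edgeR adjusted p = 0.00453) and was at -0.66 ± 0.25 in TGL (edgeR adjusted p = 0.152).

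Its mitochondrial neighbour Acot2 (ENSMUSG00000021226, GRCm38 chromosome 12, 83987861 to 83993873) had 67.5, 70.4, 38.7 and 67.3 CPM in NTG 0 to NTG 3, 47.9, 41.1 and 41.0 CPM in TGL 0 to TGL 2, and 37.3, 37.5 and 28.7 CPM in TGH 0 to TGH 2. Again NTG 2 lay inside the TG range, and all 3 TGH libraries lay under all NTG libraries. Acot2 fell by 0.82 ± 0.19 in TGH (edgeR adjusted p = 0.00596). The 2 genes lie next to each other on chromosome 12 and are near copies: 27.7% of the 50-base words of Acot2 and 19.2% of those of Acot1 occur in other genes, mostly in each other, so how reads were divided between them is uncertain.

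Of the 4 members of the carnitine shuttle and its control, Cpt1b was called. Cpt1b, the muscle form of the outer carnitine palmitoyltransferase, had 40.2, 36.0, 33.3 and 35.0 CPM in NTG 0 to NTG 3, 35.7, 36.4 and 34.7 CPM in TGL 0 to TGL 2, and 26.9, 30.8 and 31.0 CPM in TGH 0 to TGH 2. All TGH libraries lay under all NTG libraries, while TGL lay inside the NTG range, and Cpt1b fell by 0.29 ± 0.09 in TGH (edgeR adjusted p = 0.0293). With DESeq2 its adjusted p was 0.0503, and the call was lost without NTG 0, NTG 1, TGH 0 or TGH 1 (highest edgeR adjusted p = 0.102). Its exons are shared to 81.4% with Gm44502, an overlapping gene on the same strand for which no counts were analysed here, so which reads were counted for Cpt1b is uncertain and its level is not compared with that of Cpt1a.

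Cpt1a, the liver form, was at 0.34 ± 0.19 (edgeR adjusted p = 0.194), and Cpt2, the inner membrane enzyme, at 0.08 ± 0.11 (edgeR adjusted p = 0.623). Mlycd, which removes the shuttle's inhibitor malonyl-CoA, was at -0.27 ± 0.16 (edgeR adjusted p = 0.207). Of 7 other measured carnitine and malonyl-CoA genes 2 fell and 1 rose in TGH. The falls were of Acacb, the mitochondrial acetyl-CoA carboxylase that makes malonyl-CoA (a mean of 399 CPM in NTG, 289 in TGL and 258 in TGH, -0.63 ± 0.09, edgeR adjusted p = 0.000338), and of Slc25a20, the carnitine-acylcarnitine carrier (199, 161 and 130 CPM, -0.62 ± 0.10, edgeR adjusted p = 0.000879). Both lay lower in all TGH than in all NTG libraries, as did 19.6% of all tested genes.

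Of the lipid droplet members Pnpla2 was called in both lines. Pnpla2 encodes adipose triglyceride lipase, which starts the breakdown of stored triglyceride. It had 415, 418, 404 and 402 CPM in NTG 0 to NTG 3, 301, 345 and 353 CPM in TGL 0 to TGL 2, and 324, 342 and 284 CPM in TGH 0 to TGH 2. Every TG library lay under every NTG library, and the lines overlapped. Pnpla2 fell by 0.30 ± 0.08 in TGL (edgeR adjusted p = 0.0489) and by 0.37 ± 0.08 in TGH (edgeR adjusted p = 0.00456). The TGL call lies at the threshold and was lost in 8 of the 10 fits that left out 1 library. Plin5, which couples lipid droplets to mitochondria, was at -0.02 ± 0.13 (edgeR adjusted p = 0.909), with 84.3 to 125 CPM over all libraries.

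Other genes of lipid droplets and triglyceride moved as well. In TGH 8 of 18 measured genes fell and 2 rose, and in TGL 4 fell and 1 rose. Plin3, a coat protein of lipid droplets, went from a mean of 116 CPM in NTG to 73.7 in TGL and 36.8 in TGH (-1.66 ± 0.14, edgeR adjusted p = 4.68e-06). Lpin1, a phosphatidate phosphatase that also acts as a coactivator of PPAR-alpha, went from 326 to 189 and 161 CPM (-1.02 ± 0.13, edgeR adjusted p = 0.00013). Fitm1, a muscle protein of droplet formation (-1.05 ± 0.11), and Plin2, the common droplet coat (-0.61 ± 0.12), fell too in TGH (highest edgeR adjusted p = 0.00337).

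Not all steps of mitochondrial beta-oxidation were called. Of the acyl-CoA dehydrogenases, which take the first electrons off the acyl chain, Acadl (long-chain), Acadm (medium-chain) and Acads (short-chain) were not called in any comparison, with differences of TGH from NTG between -0.15 and 0.13 on the log2 scale. Acadvl, the very long-chain enzyme of the inner membrane, had 540.0, 577, 518 and 520.5 CPM in NTG 0 to NTG 3, 498, 509 and 497 CPM in TGL 0 to TGL 2, and 466, 483 and 422 CPM in TGH 0 to TGH 2. The 3 groups did not overlap, and Acadvl fell by 0.24 ± 0.07 in TGH (edgeR adjusted p = 0.0206), a call lost without TGH 2 or NTG 1 (highest edgeR adjusted p = 0.0765). Its exons overlap those of Dvl2 on the other strand over 42.9% of their length. The library kit is not stated to keep strand, but Dvl2 had 1998 reads in all against 42764 for Acadvl.

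Of the enzymes of the later steps, 4 of 5 fell in TGH. Hadha and Hadhb encode the alpha and beta subunits of the trifunctional protein, which carries out the remaining steps on long chains, and lie head to head on chromosome 5 (GRCm38, 30118304 to 30155162 and 30155248 to 30184593). Hadha had 1961, 2008, 1847 and 1834 CPM in NTG 0 to NTG 3, 1544, 1675 and 1565 CPM in TGL 0 to TGL 2, and 1309.9, 1194 and 1076 CPM in TGH 0 to TGH 2. The 3 groups did not overlap. Hadha fell by 0.68 ± 0.08 in TGH (edgeR adjusted p = 5.81e-05) and lay -0.42 ± 0.08 in TGH against TGL (edgeR adjusted p = 0.00875), while TGL against NTG missed the threshold (-0.26 ± 0.08, edgeR adjusted p = 0.0718).

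Hadhb had 1557, 1607, 1427 and 1489 CPM in NTG 0 to NTG 3, 1328, 1374 and 1356 CPM in TGL 0 to TGL 2, and 1156, 1273 and 1146 CPM in TGH 0 to TGH 2. It too showed no overlap between the 3 groups. It fell by 0.35 ± 0.07 in TGH (edgeR adjusted p = 0.0024), and TGH against TGL did not pass (-0.18 ± 0.07, edgeR adjusted p = 0.142). Of its 50-base words 19.7% occur in other genes, Gm13910 first.

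Acaa2, the mitochondrial thiolase that releases acetyl-CoA, had 922, 971, 747 and 835 CPM in NTG 0 to NTG 3, 646, 618 and 655 CPM in TGL 0 to TGL 2, and 502, 562 and 464 CPM in TGH 0 to TGH 2. The groups again stood apart in order. Acaa2 was called in both lines, having dropped by 0.44 ± 0.10 in TGL (edgeR adjusted p = 0.0193) and by 0.77 ± 0.10 in TGH (edgeR adjusted p = 0.000116), and it was called in TG and in TGH against NTG whichever library was left out. The TGL call was lost without NTG 0, NTG 1, TGL 0 or TGL 1 (highest edgeR adjusted p = 0.0901).

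Hadh, the short-chain hydroxyacyl-CoA dehydrogenase, had 968, 991, 869 and 895 CPM in NTG 0 to NTG 3, 804, 813 and 799 CPM in TGL 0 to TGL 2, and 694, 722 and 552 CPM in TGH 0 to TGH 2. It fell by 0.50 ± 0.09 in TGH (edgeR adjusted p = 0.00168), with no overlap between the 3 groups. Echs1, the short-chain hydratase, overlapped between groups (-0.14 ± 0.07, edgeR adjusted p = 0.16).

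Unsaturated fatty acids need extra enzymes that move or remove double bonds. Ech1, a dienoyl-CoA isomerase, had 1807, 1768, 1523 and 1582 CPM in NTG 0 to NTG 3, 1292, 1271 and 1379.6 CPM in TGL 0 to TGL 2, and 1333, 1441 and 1108 CPM in TGH 0 to TGH 2. Both lines lay under NTG and overlapped each other, with -0.35 ± 0.10 in TGL (edgeR adjusted p = 0.0581) and -0.37 ± 0.10 in TGH (edgeR adjusted p = 0.0132). The difference between the lines was -0.02 ± 0.10 (edgeR adjusted p = 0.922).

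Eci1, an enoyl-CoA isomerase, had 288, 291, 304 and 278 CPM in NTG 0 to NTG 3, 216, 234 and 269 CPM in TGL 0 to TGL 2, and 245, 240.0 and 188 CPM in TGH 0 to TGH 2. Every TG library lay under every NTG library. Eci1 fell by 0.37 ± 0.10 in TGH (edgeR adjusted p = 0.0166), and without TGH 2 that adjusted p was 0.0544. Decr1, the mitochondrial dienoyl-CoA reductase, had 634, 656, 579.9 and 581 CPM in NTG 0 to NTG 3, 573, 536 and 585 CPM in TGL 0 to TGL 2, and 505, 515 and 409 CPM in TGH 0 to TGH 2. Here TGL overlapped NTG and TGH lay under both, with a fall of 0.36 ± 0.09 in TGH (edgeR adjusted p = 0.009). Eci2, a second isomerase, was at -0.08 ± 0.08 (edgeR adjusted p = 0.472).

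The electrons of the acyl-CoA dehydrogenases pass through the electron transfer flavoprotein, a dimer of the products of Etfa and Etfb, and through its ubiquinone oxidoreductase, encoded by Etfdh. Of the dimer's subunits Etfb was called and Etfa was not, and this difference was not tested. Etfb had 574, 597, 540.3 and 558 CPM in NTG 0 to NTG 3, 499, 494 and 461 CPM in TGL 0 to TGL 2, and 362, 369.6 and 376 CPM in TGH 0 to TGH 2, with 3 separate groups. It fell by 0.62 ± 0.06 in TGH (edgeR adjusted p = 2.2e-05) and was lower in TGH than in TGL (-0.39 ± 0.07, edgeR adjusted p = 0.0034). Etfa stood at -0.01 ± 0.08 in TGH (edgeR adjusted p = 0.966), with 568 to 702 CPM over all libraries. Etfb shares 53.0% of its exon length with Gm45233 on the same strand, for which no counts were analysed here.

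Etfdh had 1178, 1229.8, 1083 and 1133 CPM in NTG 0 to NTG 3, 1128, 1009.5 and 1132 CPM in TGL 0 to TGL 2, and 995, 885 and 703 CPM in TGH 0 to TGH 2. TGL overlapped NTG, TGH lay under both, and Etfdh fell by 0.42 ± 0.11 in TGH (edgeR adjusted p = 0.01). Among 13 other genes of acyl-CoA metabolism 3 fell and 3 rose in TGH. Hsd17b10, a hydroxyacyl-CoA dehydrogenase (-0.64 ± 0.07), and Acad11, an acyl-CoA dehydrogenase (-0.54 ± 0.09), fell, while Echdc1, which removes ethylmalonyl-CoA (0.59 ± 0.11), and Acad10 (0.64 ± 0.13) rose, with a highest edgeR adjusted p of 0.00386 among these 4.

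Of the peroxisomal members, Ehhadh fell in TGH and Acaa1a differed between the lines. Ehhadh, the peroxisomal bifunctional enzyme, had 12.3, 13.8, 10.1 and 19.0 CPM in NTG 0 to NTG 3, 13.9, 10.7 and 9.58 CPM in TGL 0 to TGL 2, and 8.18, 10.1 and 7.02 CPM in TGH 0 to TGH 2. All TGH libraries lay under the lowest NTG library, NTG 2, though TGH 1 by very little, and Ehhadh fell by 0.70 ± 0.22 in TGH (edgeR adjusted p = 0.0276), a call lost in 4 of the 10 fits that left out 1 library (highest edgeR adjusted p = 0.0955). Acaa1a, a peroxisomal thiolase, had 38.1, 33.4, 31.5 and 35.3 CPM in NTG 0 to NTG 3, 25.4, 26.4 and 18.2 CPM in TGL 0 to TGL 2, and 32.3, 46.3 and 46.2 CPM in TGH 0 to TGH 2. TGL lay under NTG without overlap, and TGH 1 and TGH 2 lay above all NTG libraries. Against NTG it passed in neither line (-0.57 ± 0.16 in TGL, edgeR adjusted p = 0.0554, and 0.27 ± 0.15 in TGH, edgeR adjusted p = 0.184), but the lines differed from each other by 0.84 ± 0.16 (edgeR adjusted p = 0.00842). Of its 50-base words 17.1% occur in other genes, mainly its copy Acaa1b.

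Of 16 other peroxisomal oxidation genes 2 rose and 3 fell in TGH. Acox2, the branched-chain acyl-CoA oxidase, went from 0.119 to 0.801 CPM in the NTG libraries to 6.39 to 9.24 in TGL and 31.1 to 31.7 in TGH (5.87 ± 0.24 in TGH against NTG, edgeR adjusted p = 1.18e-08). Phyh (-0.28 ± 0.06), of branched-chain oxidation, and Hsd17b4 (-0.27 ± 0.08), the second bifunctional enzyme, fell.

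**Figure D4:**
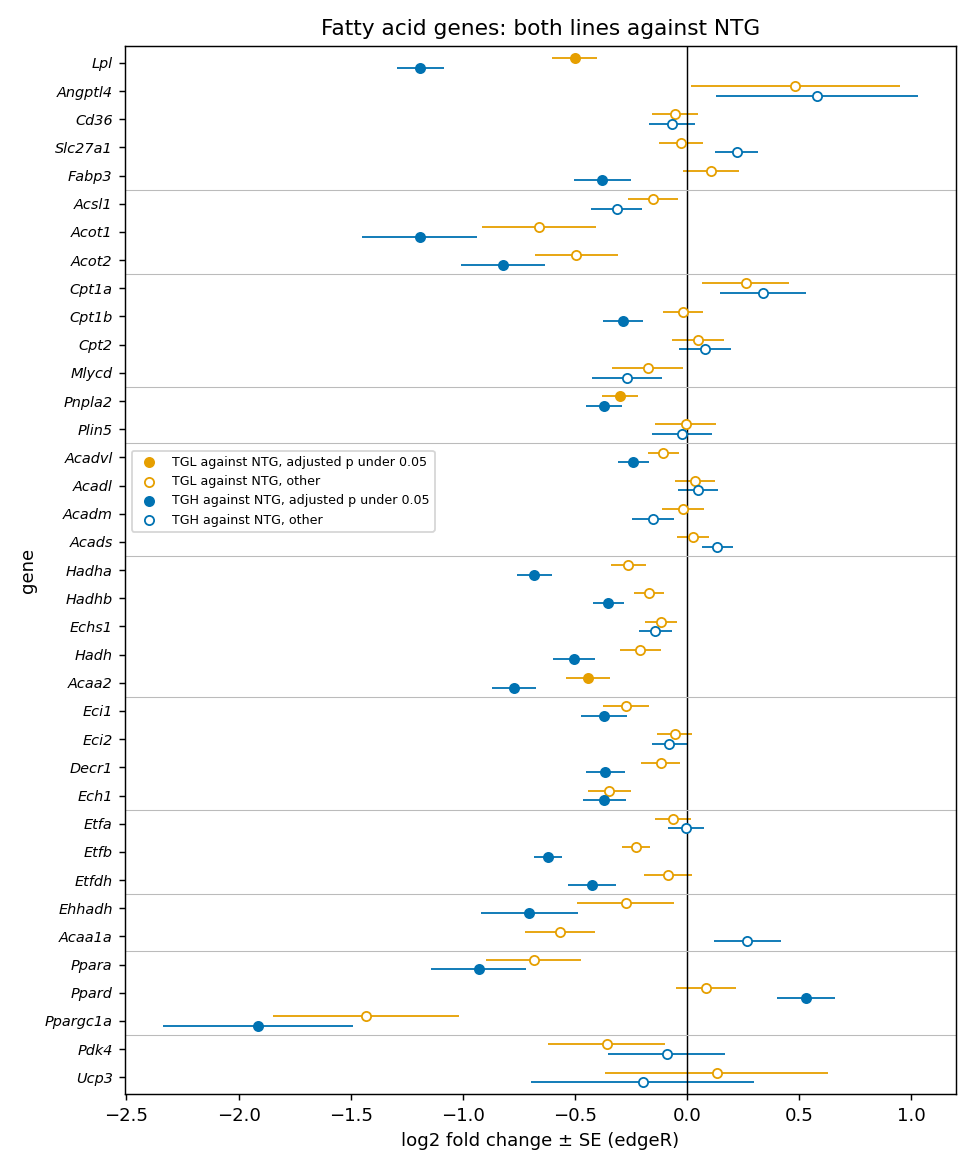
Points give the log2 fold change of each member in TGL (orange) and TGH (blue) against NTG, with the standard error as bars, and filled points have an edgeR adjusted p under 0.05. Of the 37 genes 19 fell and 1, Ppard, rose in TGH, and 3 fell in TGL.

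The transcription factors split. Ppargc1a, the coactivator PGC-1-alpha (ENSMUSG00000029167, GRCm38 chromosome 5, 51454250 to 51567726), had 485, 686, 862 and 379 CPM in NTG 0 to NTG 3, 135, 129 and 407 CPM in TGL 0 to TGL 2, and 140.0, 119.7 and 221 CPM in TGH 0 to TGH 2. TGH lay under NTG, and in TGL the library TGL 2 lay inside the NTG range and the other TGL libraries far under it. Ppargc1a fell by 1.91 ± 0.42 in TGH (edgeR adjusted p = 0.00515), or 3.77-fold, the furthest fall of the members. In TGL it was at -1.43 ± 0.41 and did not pass (edgeR adjusted p = 0.0656). Without TGL 2 the value was -2.19 (edgeR adjusted p = 0.00245), and without TGL 1 it was -1.15. Over the fits that left out 1 library its highest edgeR adjusted p in TGL was 0.239.

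Ppara encodes PPAR-alpha (ENSMUSG00000022383, GRCm38 chromosome 15, 85734983 to 85802819). It had 69.7, 68.2, 53.4 and 57.8 CPM in NTG 0 to NTG 3, 28.0, 30.3 and 58.2 CPM in TGL 0 to TGL 2, and 31.5, 32.9 and 33.7 CPM in TGH 0 to TGH 2. The pattern was the same: TGL 2 lay with NTG, and the other 5 TG libraries lay under it. Ppara fell by 0.93 ± 0.21 in TGH (edgeR adjusted p = 0.00615) and was at -0.68 ± 0.21 in TGL (edgeR adjusted p = 0.0821). The TGL value became -1.09 without TGL 2 (edgeR adjusted p = 0.000401) and -0.49 without TGL 0. Its highest edgeR adjusted p over the fits that left out 1 library was 0.299. TGL 2 also had the highest summed level of 13 clock genes of its group, 869 CPM against 656 and 697. TGH 2 likewise had the highest sum of its own group, 704 CPM against 604 and 584, and NTG had 712 to 997. Of these 13 genes 7 fell in TGH (Dbp, Hlf, Nr1d1, Nr1d2, Per1, Per3 and Ciart) and 1, Clock, rose. The sum thus joins genes that moved in opposite directions and is not a measure of clock phase. The time of day at which hearts were taken is not given in the sources used here, and the part of clock phase was not tested.

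Ppard, which encodes PPAR-delta (ENSMUSG00000002250, GRCm38 chromosome 17, 28232754 to 28301469), went the other way, with 41.0, 41.9, 43.0 and 37.6 CPM in NTG 0 to NTG 3, 37.0, 43.4 and 49.7 CPM in TGL 0 to TGL 2, and 52.0, 52.8 and 72.5 CPM in TGH 0 to TGH 2. TGH lay above both other groups, and Ppard rose by 0.53 ± 0.13 in TGH (log2 ± SE, edgeR adjusted p = 0.00892), the single member called higher there. Without TGH 2, its highest library, the rise was 0.36 on the log2 scale with an edgeR adjusted p of 0.0326, the highest over all fits that left out 1 library. TGH against TGL did not pass (0.45 ± 0.14, edgeR adjusted p = 0.0685).

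The promoter windows of Ppard and Ehhadh are printed because they are the members' windows with the core of the antioxidant response element, the site of Nrf2, and that of Ppargc1a because it fell furthest. Each runs from 250 bases before to 20 bases after the start site of the RefSeq gene (GRCm38.p6), 5′ to 3′ on the gene's strand, and capitals mark the element TGACNNNGC.
Ppard (+ strand, chr17:28232504-28232773): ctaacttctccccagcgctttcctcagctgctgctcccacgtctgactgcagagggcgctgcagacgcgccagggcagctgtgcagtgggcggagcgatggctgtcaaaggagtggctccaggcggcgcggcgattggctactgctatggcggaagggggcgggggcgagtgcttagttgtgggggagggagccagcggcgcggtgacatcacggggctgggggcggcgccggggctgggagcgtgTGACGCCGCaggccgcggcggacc
Ehhadh (- strand, chr16:21787815-21788084): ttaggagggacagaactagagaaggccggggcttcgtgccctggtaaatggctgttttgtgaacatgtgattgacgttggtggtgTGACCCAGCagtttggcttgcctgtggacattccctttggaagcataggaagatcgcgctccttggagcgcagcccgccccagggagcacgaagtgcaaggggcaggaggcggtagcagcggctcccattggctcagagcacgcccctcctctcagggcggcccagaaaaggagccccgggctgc
Ppargc1a (- strand, chr5:51567706-51567975): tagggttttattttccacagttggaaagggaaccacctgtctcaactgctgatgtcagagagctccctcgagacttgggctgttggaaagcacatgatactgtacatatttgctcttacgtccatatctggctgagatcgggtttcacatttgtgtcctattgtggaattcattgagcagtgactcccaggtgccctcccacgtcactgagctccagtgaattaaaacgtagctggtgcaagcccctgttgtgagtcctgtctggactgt
In Ppard the match begins 4 bases before the start site, and in Ehhadh 165 bases before it. Windows of 300 bases, ending 50 bases after the start site, were at hand for 32 of the 37 members, 36 windows in all. On either strand TGACNNNGC was in 2 of these 36 (5.56%) and in 12.4% of all 32851 windows. The paired site of PPAR with its partner RXR, which is AGGTCA repeated in the same direction after 1 base, was in 0 of 36 and in 0.0396% of all. TCAAGGTCA, the site of oestrogen-related receptors, was in 0 of 36 and in 0.423% of all. Exact matches to these 2 sites are so rare among all windows that 0 of 36 does not show that the members lack them. The single repeat AGGTCA, which both of these contain, was in 8 of 36 (22.2%), among them windows of Acadm, Cd36 and Cpt1a, and in 16.3% of all. Ppargc1a held no match to these letters in its window.

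Of 18 other measured partners of these factors 7 fell and 1 rose in TGH. Pparg, a further receptor of the family, fell (-1.19 ± 0.21, edgeR adjusted p = 0.00143), from a mean of 21.6 CPM in NTG to 13.3 in TGL and 9.50 in TGH. The corepressor Ncor1 (-0.49 ± 0.08) and the muscle regulator Perm1 (-0.39 ± 0.09) fell too, with a highest edgeR adjusted p of 0.00479. The riser was Ppargc1b, the relative of Ppargc1a, with a mean of 17.6 CPM in NTG, 27.2 in TGL and 24.5 in TGH.

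Members of the switch between fuels varied widely within groups. Pdk4, the kinase that inhibits pyruvate dehydrogenase and so limits glucose oxidation when fat is burned, had 861, 1096, 1313 and 1271 CPM in NTG 0 to NTG 3, 1092, 693 and 873 CPM in TGL 0 to TGL 2, and 1215, 1405 and 578 CPM in TGH 0 to TGH 2. The groups overlapped, with TGH 2 the lowest and TGH 1 the highest library of all, and the difference in TGH was -0.09 ± 0.26 (edgeR adjusted p = 0.813). Ucp3, a mitochondrial carrier induced by fatty acids, ranged from 12.1 CPM in TGH 2 to 91.3 in NTG 3 (-0.20 ± 0.50, edgeR adjusted p = 0.787). In TGH 2 the levels of Pdk4, Ucp3 and Angptl4 were all the lowest of the 10 libraries.

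Among 8 other genes of pyruvate dehydrogenase control and uncoupling, Pdk2 (-0.49 ± 0.06) and the phosphatase Pdp2 (-1.02 ± 0.28) fell and Pdk3 (2.14 ± 0.28) and Pdp1 (0.50 ± 0.17) rose in TGH, with a highest edgeR adjusted p of 0.0379. Of 5 ketone body genes Bdh1, the hydroxybutyrate dehydrogenase, rose from a mean of 90.6 CPM in NTG to 211 in TGL and 315 in TGH (3.48-fold, edgeR adjusted p = 0.000265). Of 10 other acyl-CoA synthetases and thioesterases 4 fell and 1 rose in TGH, with Acsl6 (-2.06 ± 0.16) and Acot13 (-0.92 ± 0.07) the furthest by adjusted p (highest edgeR adjusted p of both = 2.54e-06), and of 6 other uptake and binding genes Vldlr (-0.40 ± 0.08, edgeR adjusted p = 0.00201) fell beside Gpihbp1. Over all 9 lists of further pathway genes 32 of 101 fell (median -0.15) and 13 rose in TGH. Of all tested genes 16.4% were called lower and 16% higher there, which is the background for each single list as well. In TGL 9 of the 101 fell and 6 rose, beside 2.14% and 4.15% of all genes.

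Between the lines 5 members differed. Hadha, Etfb, Fabp3 and Lpl were lower and Acaa1a higher in TGH than in TGL, 4 of 37 lower (10.8%) beside 4.11% of all genes, and 1 higher (2.70%) beside 5.53%, where 9.64% of all genes were called in either direction. Without overlap between the lines 13 of 37 members were lower (35.1%) and 4 of 37 higher in TGH, beside 13.9% and 14.5% of all genes. The members' median was -0.13 (all genes -0.0009), and without TGH 2 it was -0.02. For the other 15 members that fell in TGH against NTG, the difference between the lines did not pass, which does not show that the lines were alike.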

How the data were processed

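Left ventricular RNA was sequenced as 10 libraries, prepared with a TruSeq kit, per the labels' protocols. The authors deposited 1 table of raw counts per gene and library, with their own log2 fold changes and adjusted p-values for TG against NTG. Per the submitters' processing notes, bcl2fastq 1.8.4, Trim Galore 0.4.0, Novoalign, SAMtools and DESeq2 1.18.1 were used with mm10 (GRCm38). For the counting program, its annotation and its strand setting nothing is given in the sources used here.

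From the counts, genes were filtered with filterByExpr and scaled by TMM, and edgeR 4.0.16 quasi-likelihood tests were fitted to all genes. TG against NTG came from a fit with 2 groups and the other comparisons from 1 fit with 3 groups. Adjusted p-values are Benjamini-Hochberg over all genes tested, with a threshold of 0.05, and the standard error is the log2 fold change divided by the root of F. The fit was tested on simulated data. Rows with no gene symbol held 0.777% of counts and stayed in the fit by gene identifier. RPKM used exon lengths of GENCODE, release M21. Replicates differed by more than counting noise in all 12 pairs within groups (chi-square per degree of freedom 2.91 to 18.0). Each library was counted as 1 sample, though this spread does not show that each came from a separate mouse.

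The members, the lists of pathway genes and markers and the tests were chosen with earlier results of these data known. All 37 members are named. Values per library are given for members called in at least 1 comparison and for Cd36 and Pdk4, and of each pathway list up to 4 genes with the smallest adjusted p in TGH against NTG are named, except some that are not reported here. The limit of 3 counts covers counting error only. Alternatives were other size factors, DESeq2 1.42.0, other filters and thresholds, a replicate block, other groups in the fit, another gene length and leaving out libraries.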

Additional observations from a re-analysis of the deposited data

Results flagged for a closer look

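In NTG 2 the Acot2 level lay far from the other NTG libraries: its gap to the nearest was 0.925 of the group's range, above the 95% limit of Dixon's test for 4 samples. For Mlycd the same library had a gap of 0.839 of the range. All 37 members were checked in NTG, and chance alone flags about 1 in 20. Acot2 was called lower in TGH against NTG whichever library was left out, and Mlycd was not called in any comparison.

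For 5 members the effect differed between the lines by the test of TGH against TGL. The log2 fold change of TGH against TGL was -0.42 for Hadha, -0.39 for Etfb, -0.48 for Fabp3, -0.69 for Lpl and 0.84 for Acaa1a. For Acaa1a the differences from NTG pointed in opposite directions in the lines, and neither of these passed. The call for Fabp3 was lost in 8 of the 10 fits that left out 1 library.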

How the results depend on the processing

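Over all alternatives 186 of 220 counts and medians kept their direction and stayed close to the reported value, and of 817 values for single members 688 kept their call, 122 lost it, 7 gained one and 0 reversed. In TG against NTG members that fell numbered 5 with the replicate block and 1 at an adjusted p under 0.01. In TGL they numbered 8 with DESeq2, 5 without a filter, 6 with only NTG and TGL in the fit, 0 at 0.01, 9 at 0.1 and 10 with NTG 2 and TGH 2 left out. In TGH 12 fell at 0.01, and 2 rose with the replicate block, at 0.1 and with NTG 2 and TGH 2 left out, where the median was -0.21. Between the lines 2 rose with DESeq2, with the replicate block and at 0.1, 7 fell at 0.1, and the median was -0.018 with NTG 2 and TGH 2 left out. The cause of these differences was not tested, except that a threshold changes the count by its construction.

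Leaving out 1 library at a time, members that fell numbered 5 to 13 in TG, 0 to 6 in TGL, 15 to 19 in TGH and 3 to 5 between the lines. Members that rose numbered 1 to 2 in TGH (2 without TGH 0 or TGH 2) and 1 to 2 between the lines (2 without TGL 2). Medians ran from -0.23 to -0.14 in TG, -0.15 to -0.11 in TGL, -0.35 to -0.18 in TGH and -0.17 to -0.023 between the lines. Of 9 same-numbered pairs 2 had a correlation of deviations over 0.1 (-0.05 to 0.33). Those of NTG with either line ran from -0.05 to 0.01, so no deviation shared by replicate number was seen there. With so few libraries per group this does not exclude a pairing. Between TGL and TGH the correlations were 0.15, 0.06 and 0.33 for replicates 0, 1 and 2, so TGL 2 and TGH 2 deviated alike. With different numbers, TGL 0 and TGH 1 also had 0.15. What TGL 2 and TGH 2 share was not tested, and the replicate block is given only here. With it 17 members fell in TGH and 3 in TGL. Depth limits mainly Angptl4, Ehhadh and Acot1, which had fewer than 100 reads in some libraries.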
